A study of Mus musculus with 2 samples.

Results

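The genes of the ubiquitin-conjugating (E2) enzymes were taken as all protein-coding mouse genes whose symbol is Ube2 followed by a letter. There were 37 of them among 21887 protein-coding genes on the assembled chromosomes. A gene was counted as carrying ARID4B when an enriched interval of the ChIP library overlapped its GRCm38 gene record or the 1 kb on either side by at least 1 bp. By that rule 22 of the 37 genes (59.5%) carried an interval, where 30.7% of all protein-coding genes did. Since the intervals themselves chose these 22 genes, the counts and scores below are a description, with no test. The symbol rule also took in Ube2cbp, whose product binds the E2 enzyme UBE2C and acts as a ligase, not as an E2 enzyme.

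The ChIP group was 1 library of chromatin precipitated with an antibody against ARID4B, a subunit of the SIN3-histone deacetylase complex, from a pool of 108 testes of wild type mice at postnatal day 1.5. The input group was 1 library of DNA from the same tissue without antibody. The mice of both groups were of a hybrid C57BL6/J and 129/SvEv background and were fed standard chow. The deposited list holds 6632 intervals with the authors' own score each, from 70.02 to 1760.61 with a median of 124.98, and a larger score is taken here as stronger evidence of enrichment, since no source states its scale. There was no replicate, no library from tissue without ARID4B was used here, and read depth is unknown. Whole testes were used, so an interval cannot be assigned to a cell type, and the list gives no expression against which the tissue could be checked.

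Ubiquitin is attached to proteins in a cascade. An E1 enzyme activates it, an E2 enzyme carries it on its catalytic cysteine, and an E3 ligase brings the loaded E2 enzyme to the substrate. The E2 enzyme often sets the type of chain that is built, and related E2 enzymes carry proteins such as NEDD8 or ISG15 in place of ubiquitin. In the testis the pathway is best known from Ube2b, without which male mice are infertile.

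The stretches directly before the annotated start are shown for 6 genes that carry the main contrasts. Ube2g1 and Ube2n had the 2 best-scoring intervals among genes with a listed promoter. For Ube2k the whole stretch between its start and the neighbouring gene Smim14 is given, because 1 interval covered both. Ube2s and Ube2t had intervals of middle and low score. Ube2c, the partner of Ube2s in mitosis, had no interval. All are written 5' to 3' on the gene's strand from RefSeq (GRCm38.p6), 250 bases each except 95 for Ube2k. They lie at chr11:72607011-72607260 (plus strand), chr10:95514912-95515161 (plus), chr5:65537150-65537244 (plus), chr7:4812341-4812590 (minus), chr1:134962315-134962564 (plus) and chr2:164769679-164769928 (plus). Capitals mark matches on either strand to the motifs described further on.
Ube2g1: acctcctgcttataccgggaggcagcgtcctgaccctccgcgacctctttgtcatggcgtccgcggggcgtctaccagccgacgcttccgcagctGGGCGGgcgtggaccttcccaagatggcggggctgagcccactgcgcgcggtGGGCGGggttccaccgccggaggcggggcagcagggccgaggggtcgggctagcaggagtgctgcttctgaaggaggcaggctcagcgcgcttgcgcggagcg
Ube2n: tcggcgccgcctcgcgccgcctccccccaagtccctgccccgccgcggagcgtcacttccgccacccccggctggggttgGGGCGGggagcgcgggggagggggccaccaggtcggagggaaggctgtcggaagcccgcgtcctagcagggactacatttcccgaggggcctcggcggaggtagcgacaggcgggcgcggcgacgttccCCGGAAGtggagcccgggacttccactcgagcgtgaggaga
Ube2k: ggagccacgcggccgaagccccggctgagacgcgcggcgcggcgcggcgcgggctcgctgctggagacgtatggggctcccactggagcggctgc
Ube2s: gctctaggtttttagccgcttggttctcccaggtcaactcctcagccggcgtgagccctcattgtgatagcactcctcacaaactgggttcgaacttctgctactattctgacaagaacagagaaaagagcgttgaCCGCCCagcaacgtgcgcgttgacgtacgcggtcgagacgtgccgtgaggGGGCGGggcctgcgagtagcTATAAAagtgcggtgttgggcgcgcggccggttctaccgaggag
Ube2t: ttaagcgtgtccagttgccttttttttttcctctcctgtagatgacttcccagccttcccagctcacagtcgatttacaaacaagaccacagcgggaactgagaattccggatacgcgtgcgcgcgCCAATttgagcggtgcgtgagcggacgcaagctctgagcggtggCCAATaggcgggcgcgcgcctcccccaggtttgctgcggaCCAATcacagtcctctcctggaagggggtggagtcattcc
Ube2c: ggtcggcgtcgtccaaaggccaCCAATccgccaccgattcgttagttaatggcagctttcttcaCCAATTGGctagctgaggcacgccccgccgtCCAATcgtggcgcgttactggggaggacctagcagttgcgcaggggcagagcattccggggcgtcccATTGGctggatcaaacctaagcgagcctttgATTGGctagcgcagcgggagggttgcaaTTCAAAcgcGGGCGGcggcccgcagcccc
The Ube2c and Ube2t stretches hold repeated CCAAT boxes, the Ube2s stretch a TATA box and GC boxes, the Ube2g1 stretch GC boxes, and the Ube2n stretch a GC box and an ETS site core close to the start. The stretch between Ube2k and Smim14 holds none of the motifs.

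The role groups below hold 10 genes or fewer, and differences between them were not tested. Enzymes of DNA damage tolerance and repair nearly all carried an interval, with 5 of 6 genes, where 30.7% of all protein-coding genes did. Ube2n encodes the E2 enzyme of signalling chains and had the strongest of them (chr10:95514489-95516227, score 281.2, rank 649 of the 6632 intervals). Its products pair with those of Ube2v1 or Ube2v2, which resemble E2 enzymes but lack the catalytic cysteine. Ube2v1 had an interval of score 104.28 (chr2:167631233-167632589), whereas the nearest to Ube2v2 lay 292 kb away. The paralogs Ube2a and Ube2b encode the enzymes that modify PCNA and histone H2B, and both were covered. Ube2a, on the X chromosome, had a score of 107.26 (chrX:36874100-36874981). It was 1 of 29 X-linked genes with an interval (3.0% of 966 X-linked genes, where 32.3% of autosomal genes had one). Ube2b had 2 intervals. The one of score 90.59 lay over an annotated start (chr11:51999698-52000628), and that of score 98.07 overlapped the higher end of its record by 46 bp (chr11:52004100-52004836). Both lie within 1 kb of the record of Cdkl3, which overlaps that of Ube2b, so they cannot be given to either gene alone. Ube2t, the E2 enzyme of the Fanconi anaemia pathway, had the lowest best score of the 22 genes, 88.22 (chr1:134962289-134963073). In this group only Ube2n had a score above the median of the list (124.98), where 16.7% of all protein-coding genes had one.

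Chain-building enzymes of cell cycle and cullin ligases were split, with 3 of 5 genes, where 30.7% of all protein-coding genes carried an interval. Ube2g1, which in human cells builds degradation chains on substrates of cullin ligases, had an interval of score 350.97 (chr11:72606675-72608706, rank 346). The interval of Ube2k, another builder of degradation chains, scored 226.56 (chr5:65536679-65538070) and was shared with Smim14. Ube2s and Ube2c act in turn on substrates of the anaphase-promoting complex, Ube2c starting the chain and Ube2s extending it. Ube2s had an interval of score 126.91 (chr7:4811524-4812823), whereas the nearest interval to Ube2c lay 12.6 kb away at Snx21 (score 170.22). Ube2r2, a relative of the cullin ligase enzyme Cdc34, had none either, the nearest lying 121 kb away.

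All 3 enzymes that serve protein degradation at the endoplasmic reticulum carried an interval, where 30.7% of all protein-coding genes did. The membrane-anchored Ube2j2 had a score of 253.67 (chr4:155943059-155944500) and its paralog Ube2j1 one of 240.9 (chr4:33030677-33032182). Ube2g2, another enzyme of this route, had 174.13 (chr10:77621756-77623168). All 3 scores stood above the median of the list.

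Among the carriers of ubiquitin-like proteins, the NEDD8 enzymes differed, Ube2f having a low-scoring interval (chr1:91249835-91250897, score 96.13) and Ube2m none. The nearest to Ube2m was 4.8 kb away in Mzf1, with a score of 158.59. Ube2l6, the ISG15 enzyme, had none, the nearest lying 30 kb away at Slc43a1. Ube2l3, which passes ubiquitin to HECT and RBR ligases but not to RING ligases, had a score of 211.17 (chr16:17200635-17201772).

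Of the enzymes of broad partner range 3 of 10 carried an interval, a share level with the 30.7% of all protein-coding genes. Ube2d3 had 2 neighbouring intervals, of score 209.23 (chr3:135439052-135440449) and 124.51 (chr3:135437953-135439029), over different annotated starts. Ube2d1 had 103.53 (chr10:71284478-71285565), and Ube2w, whose product modifies protein N-termini, had 142.24 (chr1:16618410-16619579). Ube2d2a, a paralog of Ube2d1 and Ube2d3, had none, the nearest lying 22.4 kb away at Cxxc5 (213.83). No interval was found at Ube2e1, Ube2e2 or Ube2e3, whose nearest intervals were 43.3, 334 and 706 kb away. Ube2d2b was 37 kb from the nearest interval, and the X-linked Ube2dnl1 and Ube2dnl2 were both 10.7 Mb from one.

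Large and atypical members carried an interval in 5 of 8 cases, where 30.7% of all protein-coding genes did. Their best scores were close together. Ube2o, which combines E2 and ligase activity, had 171.33 (chr11:116580578-116581496). Ube2ql1 had 144.11 (chr13:69739061-69740307) and Ube2cbp 128.37 (chr9:86464354-86465255). Ube2q1 had 2 neighbouring intervals of 122.03 and 70.98 (chr3:89772494-89773742 and chr3:89773745-89774368), the second just above the lowest score in the list. Ube2z, which is loaded by the E1 enzyme UBA6, had 117.76 (chr11:96064627-96065745). Ube2q2, Ube2h and Ube2u had none. Ube2q2 came nearest to being counted, with an interval of score 99.6 at 1086 bp beyond its far end, at Fbxo22. For Ube2h, the E2 enzyme of the CTLH ligase complex, the nearest was 6.02 kb away (85.87), and for Ube2u 226 kb.

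**Figure D1:**
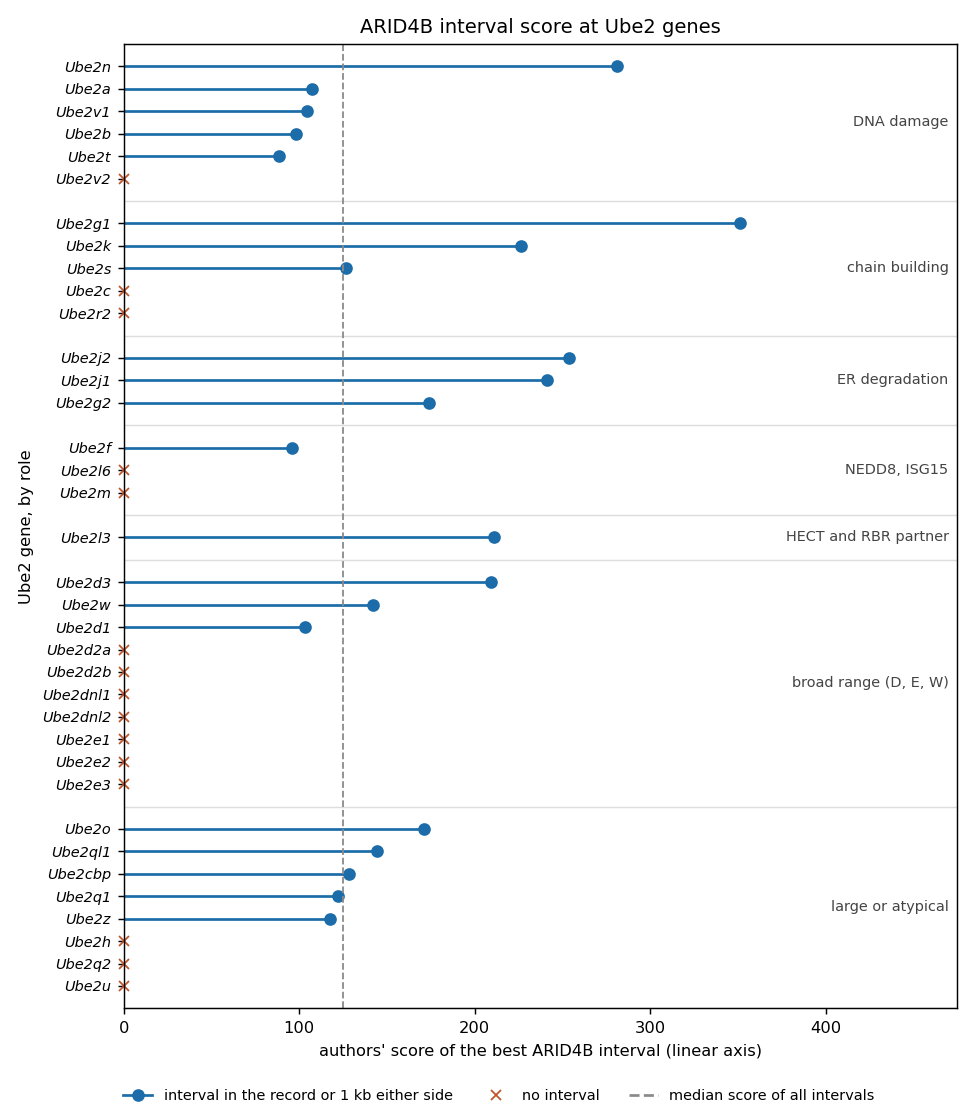
Authors' score of the best-scoring ARID4B interval (horizontal, linear axis) at 36 Ube2 genes, grouped by role. Points are genes with an interval, crosses genes with none, and the dashed line the median of all intervals (124.98); Ube2g1 and Ube2n reach furthest of the genes drawn, at 350.97 and 281.2, and the broad-range enzymes hold the most crosses of any group (3 of 10 with an interval).

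The best scores of the 22 genes had a lowest value of 88.22, a median of 143.18 and quartiles of 110 and 223. Over all 6709 protein-coding genes with an interval the median best score was 131.83. With intervals scoring above the list median alone, 14 of the 37 genes kept one, where 16.7% of all protein-coding genes did. Above the upper quartile of scores there were 8, among them Ube2g1, Ube2n, Ube2j2, Ube2j1, Ube2k, Ube2l3 and Ube2d3, where 8.71% of all genes had such an interval. Across the 25 intervals at E2 genes score and width went together (Spearman's rho 0.83, where it was 0.61 over all 6632). These points share 1 library, and both quantities come from the same reads. Other ways of counting gave like numbers. With the record alone, 500 bp either side, the midpoint inside the window or at least 200 bp of the interval inside it, the E2 count was 22 each time, where 29.6%, 30.3%, 30.2% and 30.5% of all genes were counted. With 5 kb either side it was 24 (33.5% of all genes) and within 1 kb of a record end 21 (27.1%).

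Where a start was listed, 19 of the 21 intervals at E2 genes covered one. A start was listed for 30 of the 37 genes, 18 of which had an interval, and at all 18 an interval covered a listed start. Of the 5373 protein-coding genes with an interval and a listed start, 79.2% had an interval over a start. With the best-scoring interval of each gene alone, the share was 94.4% for E2 genes, Ube2b being the exception, and 76.1% for all. The RefSeq promoter itself, 250 bases before to 50 after the start, was touched at the same number, 18 of 30, where 25.4% of 17492 genes were touched. Most intervals extended further into the gene than upstream of it. The midpoint of the best interval lay a median of 148 bp downstream of the nearest start and was downstream in 15 of 18 genes, the exceptions being Ube2j2, Ube2q1 and Ube2b. Over all genes that median was 220 bp, and 77.9% of midpoints were downstream. Over the 21 intervals at these genes the median upstream edge lay at -469 bp and the median downstream edge at 772 bp from the nearest start.

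**Figure D2:**
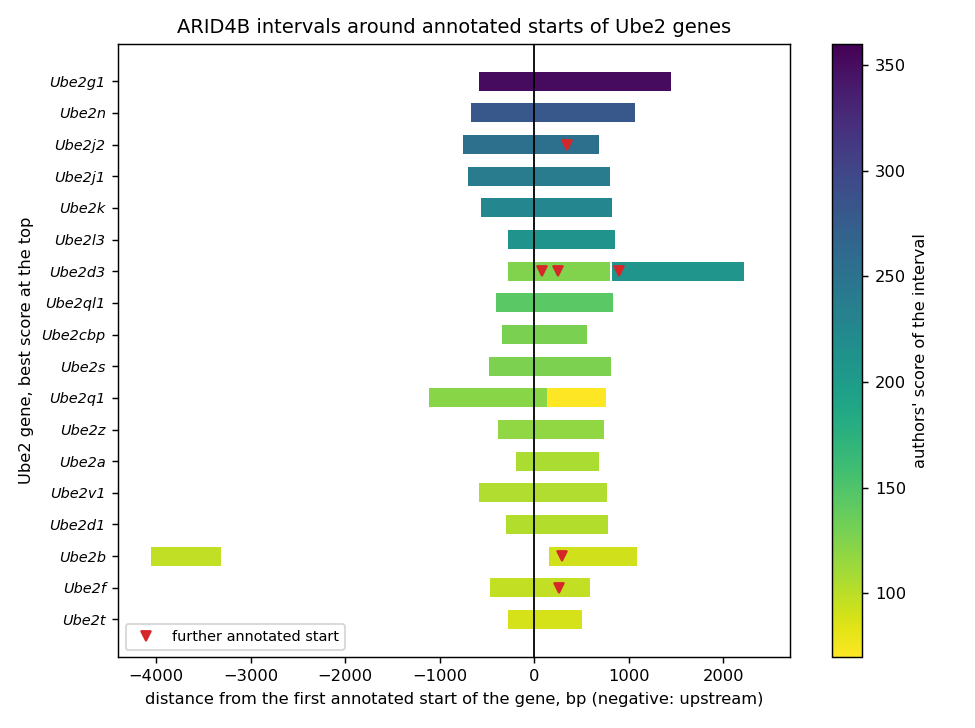
ARID4B intervals of the 18 Ube2 genes with a listed start, by distance in bp from the first listed start (negative is upstream), with the best-scoring gene at the top. Bars are intervals coloured by score and triangles further listed starts; every gene has a bar over a start, and the second bar of Ube2b lies over 3 kb upstream.

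Long and short genes differed in their share. Among E2 genes in the lower and upper middle quartiles of record length (5672 to 44337 bp) 5 of 6 and 11 of 13 carried an interval, where 30.0% and 33.7% of all genes of these lengths did. In the longest quartile 5 of 12 did, where the share of all genes was 42.3%, and in the shortest quartile Ube2s was the only one of 6 with an interval, where 16.5% of all genes had one. Records with an interval had a median length of 27182 bp among E2 genes, and those without one 43533 bp. Over all genes the medians were 26344 bp with an interval and 14220 bp without, the opposite order.

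Base composition at the start separated the E2 genes in part. The CpG ratio (observed over expected CpG in the 300-base promoter window) had a median of 0.85 in the 18 E2 genes with an interval and 0.74 in the 12 without, and the G + C content had medians of 67.4% and 59.5%. Over all 17492 protein-coding genes with a promoter window the median CpG ratio was 0.82 with an interval and 0.37 without. Quartiles of the ratio were taken over these 17492 genes. The E2 genes with an interval counted 11 of 16 in the highest, 5 of 8 in the upper middle, 2 of 5 in the lower middle and 0 of 1 in the lowest. Of the 17492 genes, 58.0%, 43.7%, 16.3% and 4.14% in the same classes had an interval. The lowest ratios were those of Ube2dnl2 (0.1), Ube2dnl1 (0.25) and Ube2u (0.35), none of which had an interval. A high ratio did not separate the rest, as Ube2e2 (1.09), Ube2m (0.95), Ube2q2 (0.94), Ube2h (0.9) and Ube2c (0.87) had none either. Ube2l3 (0.49) had an interval at a start poorer in CpG. Ube2b had a ratio of 0.53 at its first listed start, which neither of its intervals covered.

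**Figure D3:**
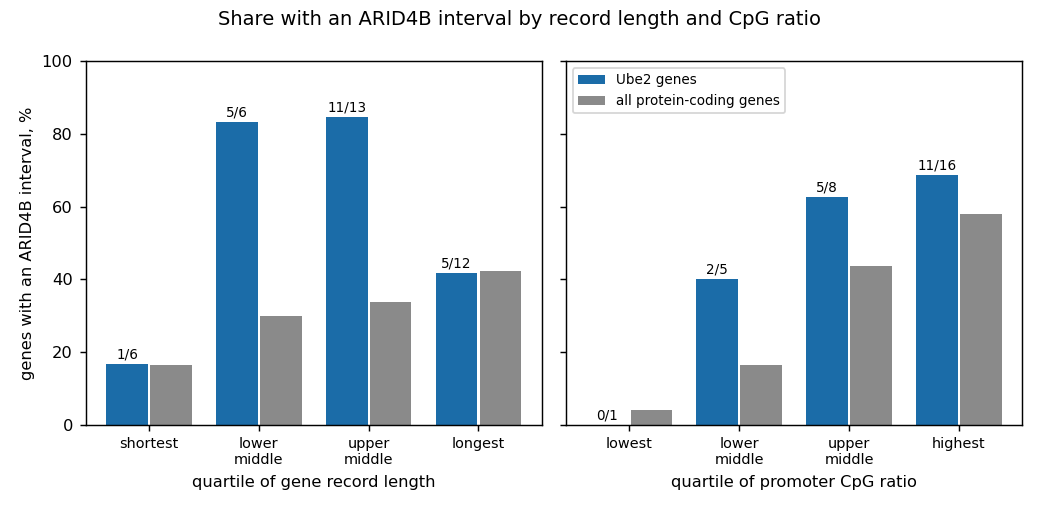
Percentage of genes with an ARID4B interval in quartiles of gene record length (left) and of promoter CpG ratio (right), Ube2 genes in blue with their counts and all protein-coding genes in grey. The right panel holds only genes with a promoter window. The E2 share is above the grey bar in the middle quartiles of length (5 of 6 and 11 of 13) and level with it at both extremes, and in the CpG quartiles both shares climb.

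**Figure D4:**
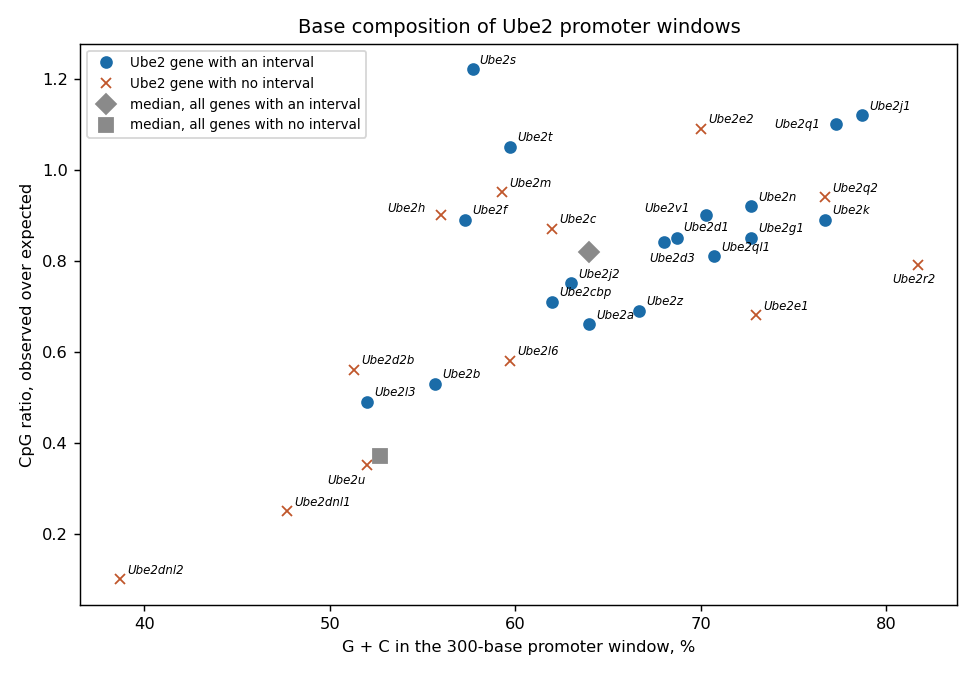
G + C content in percent (horizontal) against CpG ratio (vertical) of the 300-base promoter window of 30 Ube2 genes. Circles have an ARID4B interval and crosses none, and grey symbols are medians over all genes; the 3 lowest ratios belong to crosses, but Ube2e2, Ube2m, Ube2q2, Ube2h and Ube2c lie among the circles.

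The 7 motifs searched on both strands of the promoter windows were counted by exact letters. Genes were grouped by an interval in the record or 1 kb either side, and the window used for Ube2b was itself touched by none. The GC box GGGCGG was in the windows of 13 of 18 E2 genes with an interval and 7 of 12 without. It was in 71.2% of the windows of all genes with an interval and in 46.3% of all windows. The ETS site core CCGGAAG was in 5 of 18 (Ube2f, Ube2j2, Ube2n, Ube2q1 and Ube2v1) and 0 of 12, in 18.8% of all genes with an interval and in 11.9% of all. The CCAAT box was in 4 of 18 and 5 of 12, in 35.7% of all genes with an interval and in 39.2% of all. Ube2c held 6 matches to it, of which a pair overlaps head to head, and Ube2t held 3. The cell cycle homology region TTTGAA was in 2 of 18 and 2 of 12 (10.7% of all genes with an interval and 16.5% of all), and Ube2c holds it beside the start. TATAAA was in 2 of 18 and 1 of 12 (6.05% of all genes with an interval and 13.3% of all). The cyclic AMP response element TGACGTCA was in 1 of each (3.57% and 2.33% likewise). The AT-rich hexamer AATATT was in none of the 30, in 2.48% of all genes with an interval and in 6.51% of all windows. These matches are descriptions of the letters and not evidence of a bound factor.

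Genes around the E2 enzymes in the pathway carried intervals at a like share. Over 8 lists, 92 of 146 genes (63.0%) had one, where 30.7% of all protein-coding genes did. The HECT ligases stood highest with 16 of 19, with Trip12 (457.21, shared with Fbxo36) and Ube3a (234.02) among the best-scoring. Their records were also the longest, with a median of 100709 bp. In the longest quartile of record length 42.3% of all protein-coding genes had an interval. Of the genes for ubiquitin and its relatives 10 of 14 had one, among them Sumo3 (168.14) and Rps27a (164.1, shared with Clhc1). The E1 enzymes had 6 of 10, led by Mocs3 (364.13, shared with Dpm1) and Uba7 (348.7, shared with Inka1). Genes of the E2 fold under other symbols had 5 of 8, with Birc6 (266.16), Tsg101 (193.9) and Ufc1 (132.76, shared with Usp21) first. Cullin ligase cores had 9 of 15, with Cul4a (371.83, shared with Pcid2), Cul5 (361.02) and Cul1 (327.13) first. The anaphase-promoting complex had the lowest share, 8 of 16, with Cdc20 (186.8), Anapc5 (132.46) and Cdc16 (132.3) first. RING and RBR ligases that partner named E2 enzymes had 22 of 36, led by Mdm2 (362.28), Cblb (334.26) and Maea (312.13). Deubiquitinases and SUMO proteases had 16 of 28, led by Senp3 (434.6, shared with Eif4a1), Senp6 (303.59) and Usp47 (271.88). The intervals named for Senp3 and Ufc1 lie outside their records and count only through the 1 kb on either side. The E2 share of 59.5% lies between the lowest of these lists (8 of 16) and the highest (84.2%).

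**Figure D5:**
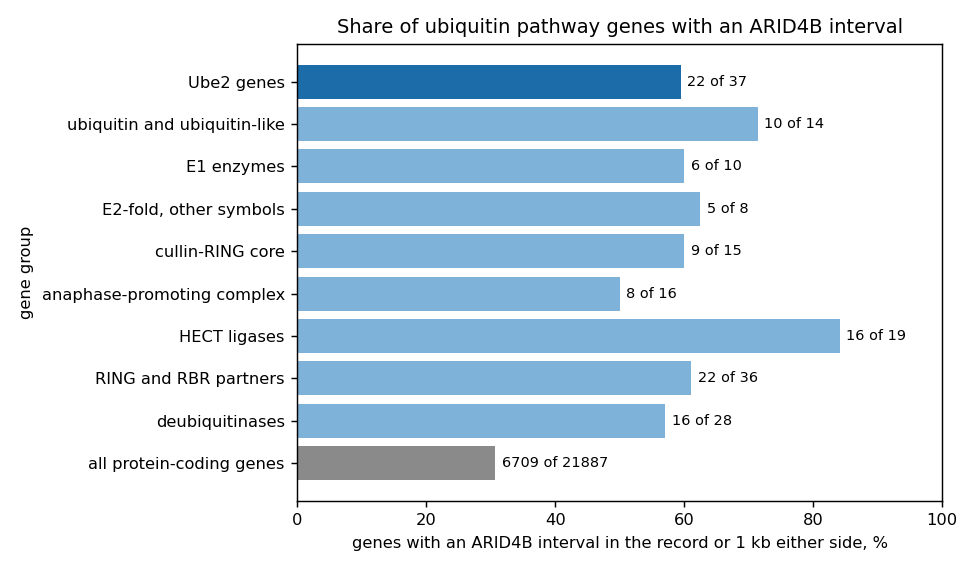
Percentage of genes with an ARID4B interval in the record or 1 kb either side, for the Ube2 genes (dark blue), 8 lists of other ubiquitin pathway genes (light blue) and all protein-coding genes (grey), with counts beside the bars. The Ube2 genes (22 of 37) lie among the other lists, and all protein-coding genes are at 30.7%.

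Followed along single cascades, with steps chosen after their values were seen, intervals were frequent in some and patchy in others. In the SUMO route Sumo2 (92.8) and Sumo3, the E1 subunits Sae1 (112.17) and Uba2 (168.88), and the ligase genes Pias1 (232.77), Pias3 (200.69) and Ranbp2 (165.29) had one, while Pias2 and Pias4 did not. In the NEDD8 route Nedd8, Uba3 and Ube2m had none, and Nae1 (70.4, shared with Car7) and Ube2f had low-scoring ones. In the ISG15 route Isg15 and Ube2l6 had none, and the E1 gene Uba7 had the interval named above. The endoplasmic reticulum ligases Syvn1 (289.66) and Rnf139 (274.2, shared with Tatdn1) had intervals, as did the E2 enzymes of this route, Ube2j1, Ube2j2 and Ube2g2. Around Ube2l3 the RBR ligase genes Arih1 (247.83), Arih2 (197.79), Rnf31 (97.4, shared with Psme2) and Rbck1 (88.02) had one. By contrast, Ube2a and Ube2b had intervals while Rad18, Rnf20 and Rnf40, whose ligases work with their products, had none. Neither had Shprh and Hltf, which act further along the PCNA pathway, nor Fancl, the ligase gene of Ube2t. Other listed ligase genes were mixed. Bard1 (156.46), Rnf8 (113.06) and Traf6 (89.05) had intervals, and Brca1 and Rnf168 had none. The deubiquitinase gene Usp1 (176.86) and its partner Wdr48 (86.18), whose products remove ubiquitin from PCNA and FANCD2, had intervals. For Ube2h the order was turned round, since Maea and Rmnd5a (120.59) of its ligase complex had intervals and Ube2h did not.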

How the data were processed

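ARID4B ChIP DNA (1 library) and input DNA (1 library) came from pooled testes. The submitters' processing notes name BWA, MACS and the build mm9, with no version, parameter or filter. The authors deposited 1 interval list for the ChIP library, with a score per interval whose scale no source states. The list is named for mm10, and its positions were read as GRCm38, of which the RefSeq gene table and promoter windows (GRCm38.p6) are. Read so, 79.2% of the protein-coding genes with an interval and a listed start had an interval over a start. Scores describe and rank intervals within this list only. Depth is unknown, so no counting interval is given.

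Gene records were joined to intervals with Python 3.11.15 and pandas 2.3.3 by an overlap of at least 1 bp with the record or 1 kb either side, and the best-scoring interval was taken. The step was tested on simulated intervals. With 1 library per group there is no test across samples. The members, lists and motifs were chosen with earlier results of these data known. Every Ube2 gene and the 3 best-scoring genes of each list are named by rule, except that 1 Ube2 gene and some list genes, kept in the counts, are not reported here; list genes without an interval and the cascades were named after their values were seen. A promoter window was listed for 30 Ube2 genes, and the 5'-most was used for base composition and motifs.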

Additional observations from a re-analysis of the deposited data

How the results depend on the processing

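The number of E2 genes with an interval was 22 with the record alone, with 500 bp either side, with the midpoint inside the window and with at least 200 bp inside it. It was 24 with 5 kb either side (Ube2m and Ube2q2 added), 21 within 1 kb of a record end, 18 of 30 at the RefSeq promoter or, chosen after the data were examined, within 1 kb of a listed start, and 19 of 30 without genes whose window is shared. Scores above the median left 14 and scores above the upper quartile 8, since fewer intervals enter. The same 2 settings left 3650 and 1907 of all protein-coding genes and 51 and 32 of the 146 pathway genes. Over all protein-coding genes 4435 of 17492 had an interval at the RefSeq promoter and 4896 (28.0%) within 1 kb of a listed start. In the record or 1 kb either side 5373 of the same genes had one. Without shared windows 3797 of 14964 protein-coding genes (25.4%) and 56 of 87 pathway genes (64.4%) had one, and the cause of the lower share over all genes was not tested. With the interval whose midpoint is nearest to a record end in place of the best, the scores became 124.51 at Ube2d3 and 70.98 at Ube2q1. The other 20 scores were unaltered. At Ube2q1 the interval of score 122.03 covers the record end, and that of 70.98 does not. No paired analysis was possible because there is 1 library per group. The depth of either library is unknown, and with no replicate a missing interval may be one below the authors' threshold.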
